A study of Mus musculus with 14 samples.

Results

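Chemokine receptors steer helper T cells to tissues, and the subsets of helper T cells are commonly told apart by the receptors they carry. The 9 receptor genes described here, Cxcr3, Cxcr4, Cxcr5, Cxcr6, Ccr2, Ccr4, Ccr6, Ccr8 and Ccr9, were chosen by name from 21883 protein-coding genes of the RefSeq annotation of GRCm38.p6. Each gene was read with 10 kb of sequence added at both ends, which gave windows of 22.6 to 42.5 kb. The genes Ccr9, Cxcr6, Xcr1, Ccr1, Ccr3 and Ccr2 are neighbours in a receptor cluster on chromosome 9, and this cluster was also read as a block of 379973 bp, chr9:123757211-124137183. Of the 9 genes, 6 lie on chromosome 9, but Ccr4, Ccr8 and Cxcr5 lie outside the block.

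All of these genes encode receptors that signal through inhibitory G proteins when a chemokine binds, and each is known for a place or a subset. Cxcr3 is the classic receptor of Th1 cells and answers ligands induced by interferon gamma, Ccr4 and Ccr8 are known from Th2 and regulatory T cells, Ccr6 from Th17 cells, and Cxcr5 from follicular helper T cells. Cxcr4 is widely carried by lymphocytes and binds the stromal chemokine Cxcl12, Cxcr6 binds Cxcl16, Ccr2 binds Ccl2, and Ccr9 guides T cells to the small intestine.

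Mouse Th1 cells were profiled by CUT&RUN, which cuts out the DNA next to a protein with a nuclease bound to an antibody, for H3K27ac, CTCF and ETS1. H3K27ac is a histone acetylation found at active promoters and enhancers, CTCF is a DNA-binding protein found at chromatin loop anchors, and ETS1 is a transcription factor of lymphocytes that recognises a GGAA core. The KO group came from mice of the strain C57BL/6J-Ets1-SE-KO, and the WT group from C57BL/6J mice. The strain name refers to an element at the Ets1 locus whose coordinates the labels do not give, and they give no age of the mice. In both groups naive CD4 T cells from spleen were stimulated with anti-CD3 and anti-CD28 and cultured for 6 days in IL-12 (10 ng/mL) and IL-2 (1 ng/mL). Live cells were then sorted for the assay. Each antibody had 2 KO and 2 WT libraries, which makes 12 peak lists, and IgG had 1 library per genotype. By their titles the KO libraries are 2 biological replicates and the WT libraries are technical replicates of 1 biological replicate, so the spread in WT is technical. The file names of the CTCF WT libraries carry different numbers, unlike those of H3K27ac and ETS1, and the titles were followed.

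Only called peaks were analysed, which leaves library depth unknown, and every value below is a number of peaks or a length of sequence under them. The H3K27ac lists held 26465 and 28647 peaks in KO and 24711 and 24581 in WT, and their total covered length was 1.31 times as high in KO. The ratio was also 1.31 for CTCF and 1.06 for ETS1, whose lists were uneven, with 40705 and 9344 peaks in KO against 14013 and 23419 in WT. At the targeted gene Ets1, H3K27ac covered 24.2 and 23.4 kb in KO against 46.6 and 44.1 kb in WT, lower in both KO libraries. Th1 and T cell genes carried H3K27ac, with a peak in every library at 3 of 4 Th1 markers (Tbx21, Il12rb2 and Stat4; Ifng had a peak in 1 WT library) and at 4 of 4 T cell markers. A peak in every library was also called at 1 of 2 CD8, 1 of 4 B cell, 2 of 4 myeloid, 1 of 3 NK and 1 of 3 erythroid markers, while the windows of Cd8a, Ms4a1, Pax5, Lyz2, Ncr1, Klrb1c and Hbb-bt had no peak in any library. Summed H3K27ac of the Th1 markers was 36.1 and 29.9 kb in KO and 19.0 and 19.5 kb in WT. Of these markers, Il12rb2 had 19.4 and 13.9 kb in KO against 4.31 and 5.65 kb in WT. Stat4 was also higher in both KO libraries, while Tbx21 and Ifng overlapped between the genotypes. Summed H3K27ac of the T cell markers was 39.9 and 39.2 kb in KO and 32.4 and 32.3 kb in WT. That of the B cell markers was 7.49 and 8.58 kb in KO and 5.79 and 4.26 kb in WT, and that of the erythroid markers 1.64 and 1.53 kb in KO and 0.827 and 0.921 kb in WT, while the CD8, myeloid and NK sums overlapped. The part of other cell types in the results below was not tested. IgG gave no peak in any of the 9 windows, from 285 peaks in KO and 2 in WT.

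RefSeq promoter sequences of GRCm38.p6, each with 250 bases before and 50 bases after a transcript start, were at hand for 8 of the 9 genes, with 9 entries because Ccr6 has a pair of starts. The 4 promoters below are shown because their peaks differ most in kind, and each is given 5′ to 3′ on the strand of its gene with every GGAA core on either strand, read as GGAA or TTCC, in capitals. The Ccr8 promoter lies at chr9:120091883-120092182 on the plus strand. The Cxcr4 promoter lies at chr1:128592250-128592549, the Ccr4 promoter at chr9:114496495-114496794 and the Cxcr3 promoter at chrX:101734098-101734397, all on the minus strand. The Ccr4 entry is a start inside the gene, whose annotated beginning on this strand is at 114505476, and no entry was at hand for that end.
Ccr8: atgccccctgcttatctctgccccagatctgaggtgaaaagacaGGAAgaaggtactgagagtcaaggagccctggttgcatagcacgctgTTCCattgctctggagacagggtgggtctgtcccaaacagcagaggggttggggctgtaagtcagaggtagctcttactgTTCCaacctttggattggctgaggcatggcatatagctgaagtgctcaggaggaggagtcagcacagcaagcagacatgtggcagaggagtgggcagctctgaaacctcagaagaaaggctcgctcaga
Cxcr4: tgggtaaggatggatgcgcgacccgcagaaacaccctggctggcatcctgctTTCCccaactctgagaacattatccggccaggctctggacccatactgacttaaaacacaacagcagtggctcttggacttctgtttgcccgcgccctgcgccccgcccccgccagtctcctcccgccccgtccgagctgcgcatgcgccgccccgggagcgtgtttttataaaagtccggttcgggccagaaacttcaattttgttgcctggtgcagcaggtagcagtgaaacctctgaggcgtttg
Ccr4: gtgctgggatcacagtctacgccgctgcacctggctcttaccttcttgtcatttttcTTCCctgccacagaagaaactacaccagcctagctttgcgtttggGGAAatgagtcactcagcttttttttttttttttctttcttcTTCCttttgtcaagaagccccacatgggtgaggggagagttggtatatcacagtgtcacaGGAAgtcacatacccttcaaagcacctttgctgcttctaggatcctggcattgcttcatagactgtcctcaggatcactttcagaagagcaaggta
Cxcr3: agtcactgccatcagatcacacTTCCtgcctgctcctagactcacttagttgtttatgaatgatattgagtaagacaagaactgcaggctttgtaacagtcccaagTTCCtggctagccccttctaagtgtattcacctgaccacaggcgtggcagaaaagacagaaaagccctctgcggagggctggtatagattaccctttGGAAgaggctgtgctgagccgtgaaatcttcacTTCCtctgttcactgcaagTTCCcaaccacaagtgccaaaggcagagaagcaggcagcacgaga

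These promoters fall into different states in the peak lists. The Ccr8 promoter was under an H3K27ac peak in all 4 libraries, over its whole 300 bases in each, while CTCF and ETS1 were called over it in KO replicate 1 alone. The Cxcr4 promoter had no H3K27ac peak in any library, but CTCF covered 300 and 300 bases of it in KO and 138 and 300 bases in WT. ETS1 covered 295 and 0 bases of the Cxcr4 promoter in KO, against 126 and 130 bases in WT. The Ccr4 promoter was likewise under CTCF in all 4 libraries, over 300 and 300 bases in KO and 234 and 244 bases in WT, and under ETS1 over 145 and 300 bases in KO and 0 and 300 bases in WT. H3K27ac was called over the Ccr4 promoter in KO replicate 2 alone. The Cxcr3 promoter had no peak of any of the 3 antibodies in any library. Among the rest, the Cxcr6 promoter had CTCF in 3 libraries and H3K27ac in 1, the second start of Ccr6 had ETS1 in 1, and the promoters of Ccr2 and Ccr9 and the other start of Ccr6 had none. Over 21262 promoter entries of protein-coding genes, 36.9% had an H3K27ac peak in all 4 libraries, 29.7% a CTCF peak and 22.3% an ETS1 peak. At least 1 library had an H3K27ac peak over 45.3%, a CTCF peak over 48.5% and an ETS1 peak over 49.9% of these entries.

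The sequences also differ in composition. The Cxcr4 promoter has 20 CpG dinucleotides and 59.3% G and C, where the median over all 32851 RefSeq entries is 7 CpG and 52.7%. The promoters of Ccr8, Ccr4 and Cxcr3 have 2, 3 and 4 CpG, and no entry of the other receptors has more than 10. Matches were counted on both strands and left as descriptions. The core GGAA was found in 9 of 9 entries, 5 times in Cxcr3, 4 times in Ccr4, 3 times in Ccr8 and 1 time in Cxcr4, but 96.0% of all promoter entries hold it. None of the 9 entries held the longer ETS form CCGGAAG (8.86% of all entries), which contains the core, the ETS-RUNX composite AGGANGTGG (3.51%), the T-box site TCACACC (3.98%) or a CTCF core motif (3.43%).

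H3K27ac called in every library was sparse at these receptors and was found at Ccr8 and Cxcr5 alone. A peak was called in at least 1 library at 5 of the 9 genes, near the shares of 60.7% of all genes and 64.4% of genes with windows of the same length range. A region called in all 4 libraries was present only at Ccr8 and Cxcr5, 2 of the 9 genes (22.2%), against 52.0% of all genes and 56.3% of those with windows as long. Cxcr3, Cxcr4, Ccr6 and Ccr9 had no H3K27ac peak in any library. In these bulk samples, fewer cells carrying a mark and less of the mark per cell cannot be told apart.

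**Figure D1:**
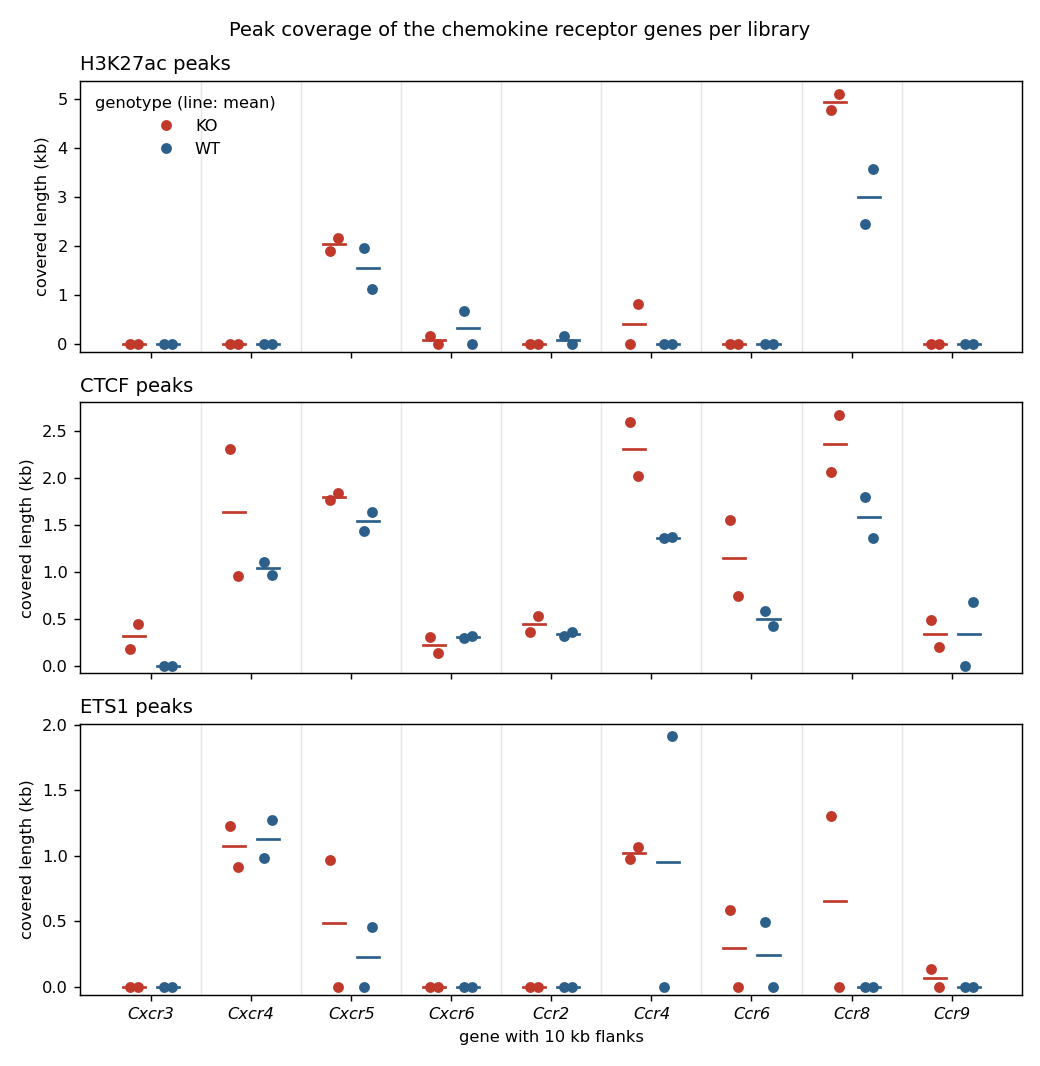
Covered length (kb, vertical axis) of H3K27ac, CTCF and ETS1 peaks in each receptor gene with 10 kb flanks (horizontal axis). Each point is a library, red for KO and blue for WT, and a short line is the mean of 2 libraries. H3K27ac is highest at Ccr8, with 4.76 and 5.10 kb in KO and 2.44 and 3.57 kb in WT, while CTCF is present at all 9 genes.

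**Figure D2:**
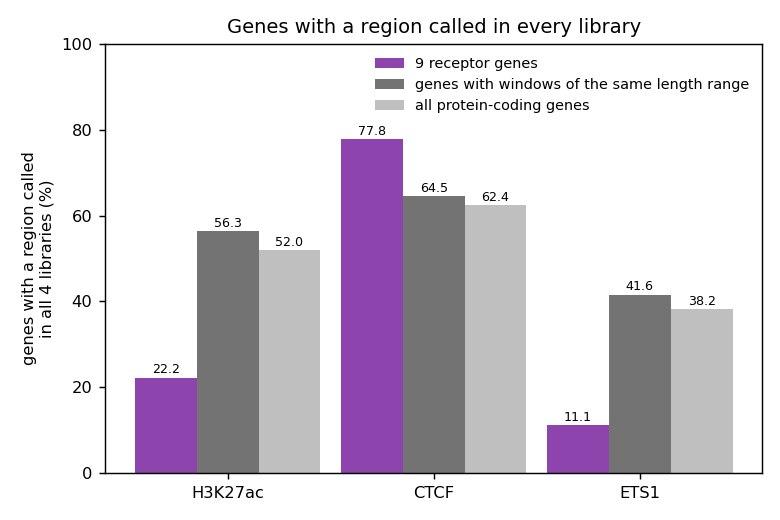
Percentage of genes with a region called in all 4 libraries of an antibody (vertical axis), for the 9 receptor genes, for genes with windows of the same length range, and for all protein-coding genes. The receptors stand at 22.2% for H3K27ac, 77.8% for CTCF and 11.1% for ETS1, against 52.0%, 62.4% and 38.2% of all genes.

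Cxcr3, the receptor gene most closely tied to Th1 cells, had no H3K27ac peak within 10 kb in these IL-12 cultures. The nearest H3K27ac peak of the KO libraries lay 30776 and 30702 bp from the gene, and that of the WT libraries lay 90092 and 31001 bp from it. The nearest region called in all 4 libraries lay 90092 bp away, within Ogt. With 50 kb flanks, H3K27ac covered 1.08 and 0.574 kb in KO against 0 and 0.23 kb in WT. CTCF was called near Cxcr3 in KO only, over 0.175 and 0.446 kb, against 0 kb in both WT libraries. The region that both KO libraries share there, chrX:101737395-101737614, spans 220 bp upstream of the gene, and its peaks ranked at the 28.6 and 17.7 percentiles of their own lists by the authors' q-value. ETS1 was not called in the window in any library.

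Ccr8, a receptor of Th2 and regulatory T cells, had the most H3K27ac of the 9 genes in every library. Its peaks covered 4.76 and 5.10 kb of the window in KO and 2.44 and 3.57 kb in WT. Both KO libraries stood above both WT libraries, with a log2 ratio of 0.57 after adding 1 kb to each mean, against a median of 0.18 over the 13281 genes with a peak. The median lengths of those genes were 1.57 kb in KO and 1.23 kb in WT. The added 1 kb shrinks ratios more at such shorter lengths, so the 2 ratios are not fully alike. Over those genes, the KO pair stood wholly above the WT pair in 54.0% and wholly below it in 6.37%, so the direction at Ccr8 is the common one. Per kb of window the peaks covered 209 and 224 bp in KO and 107 and 157 bp in WT. That is more than at 96.4% and 96.9% of protein-coding genes in the KO lists and 92.9% and 96.5% in the WT lists. Scaled to each library's total covered length, the lengths were 4.23 and 4.46 in KO and 2.79 and 4.18 in WT (kb, at the mean total of the 4 lists). They were still without overlap, but the log2 ratio fell to 0.25. The number of peaks, 2 and 3 in KO against 1 and 2 in WT, did overlap.

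The H3K27ac at Ccr8 is mainly 1 region, chr9:120090367-120094955, which spans 4589 bp over the promoter shown above and the whole gene. Its peak was 4344 and 4589 bp long in KO and 2444 and 3416 bp long in WT. The peaks began close together upstream of the gene, at 120090369 and 120090367 in KO and 120090479 and 120090417 in WT, and differed more at the other end. The KO peaks ended at 120094712 and 120094955, and the WT peaks ended at 120092922 and 120093832. The gene ends at 120094906, so only the peak of KO replicate 2 passed its end. The peaks ranked at the 79.6 and 81.8 percentiles of their own lists in KO and at the 66.7 and 61.7 percentiles in WT. A smaller region upstream, chr9:120082571-120082999, was called in both KO libraries and WT replicate 2. The length of a called peak can follow depth and background as well as the mark, and the part of these in the difference was not tested.

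Cxcr5, the receptor of follicular helper T cells, was the other gene with H3K27ac in every library. Its peaks covered 1.90 and 2.16 kb in KO and 1.97 and 1.12 kb in WT, and the genotypes overlapped, at a log2 ratio of 0.25. Per kb of window this was 54.8 and 62.4 bp in KO and 56.8 and 32.4 bp in WT, below Ccr8 in each library. The shared region chr9:44515417-44516436 lies inside Cxcr5, and the shared region chr9:44509605-44510597 lies inside the neighbouring gene Bcl9l, whose end reaches into Cxcr5. The region inside Cxcr5 ranked at the 48.2 and 64.3 percentiles of the KO lists and at the 42.5 and 38.2 percentiles of the WT lists. Among the better-scored 50% of peaks, H3K27ac covered 0 and 1.28 kb of the window in KO and 0 and 0.41 kb in WT. Another region inside Cxcr5, chr9:44517490-44518256, was called in both KO libraries and in WT replicate 1.

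At the 3 other receptors with any H3K27ac, the calls were isolated. Cxcr6 had 0.158 and 0 kb in KO against 0.677 and 0 kb in WT, Ccr2 had no peak in KO against 0.167 and 0 kb in WT, and Ccr4 had 0 and 0.813 kb in KO against none in WT. Each of these genes thus had a peak in at most 2 of 4 libraries, and the genotypes overlapped at each. Cxcr4 and Ccr6 had their nearest region of all 4 libraries at a distance of 37431 and 24351 bp, the one at Ccr6 within Mpc1, and the region nearest Ccr9 lay 49211 bp away within Lztfl1. At Cxcr4 with 50 kb flanks, H3K27ac covered 2.68 and 2.66 kb in KO against 1.43 and 1.90 kb in WT.

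Over the 9 windows together, H3K27ac covered 6.82 and 8.08 kb in KO and 5.26 and 4.69 kb in WT, a mean of 7.45 ± 0.892 kb against 4.97 ± 0.397 kb (SD over 2 libraries, technical replicates in WT). The log2 ratio was 0.50, and it was 0.16 when scaled to total covered length. By gene, both KO libraries were above both WT libraries at Ccr8 alone, 1 of the 5 genes with a peak, against 54.0% of all genes with a peak. That count was 3 without KO replicate 1, 2 without WT replicate 1, and 4 with 50 kb flanks, where Cxcr3, Cxcr4 and Cxcr6 joined Ccr8. The share over all genes is for 10 kb flanks and all 4 libraries, and none was computed for 50 kb flanks. No gene had both WT libraries above. Of 13 merged H3K27ac regions in the windows, 3 were called in all 4 libraries, none in KO only, none in WT only and 10 in other combinations, 8 of them in 1 library. Over the windows of all genes, 44.8% of regions were shared, 6.83% were KO-only and 2.50% were WT-only.

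**Figure D3:**
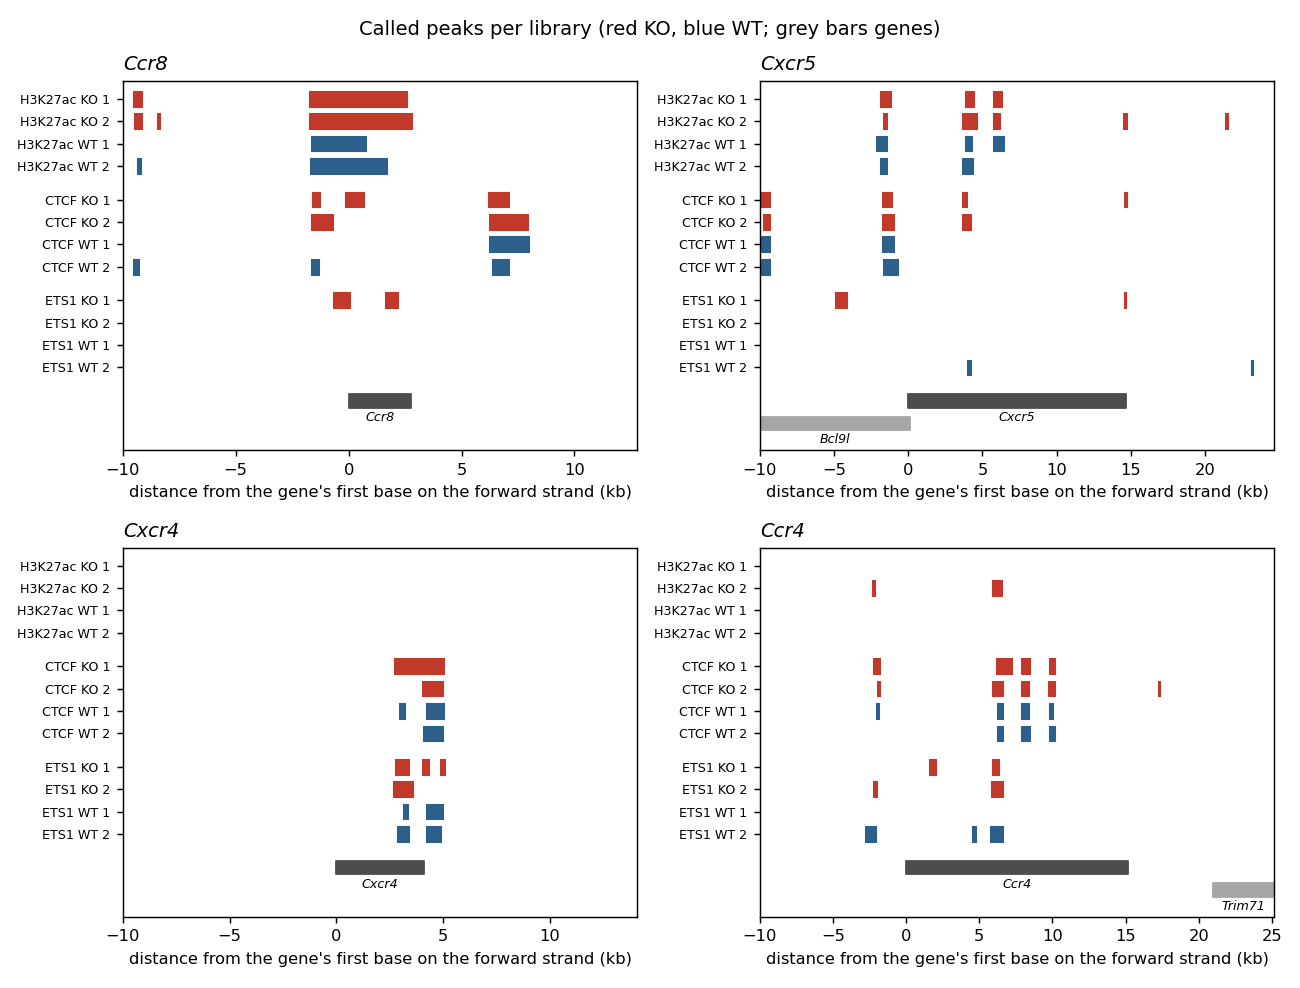
Called peaks of each library around Ccr8, Cxcr5, Cxcr4 and Ccr4, with the distance in kb from the first base of the gene on the forward strand on the horizontal axis and 1 library per row, red for KO and blue for WT. Grey bars are genes. At Ccr8 the H3K27ac peaks start together and reach farther in KO, at 4344 and 4589 bp against 2444 and 3416 bp in WT. At Cxcr4 and Ccr4, CTCF and ETS1 peaks gather near the promoter, which at Ccr4 is a start inside the gene, with little or no H3K27ac.

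CTCF was denser than H3K27ac at these genes and was called near every one of the 9 receptors in at least 1 library, against 73.4% of all genes and 76.7% of genes with windows as long. A region called in all 4 libraries was present in the windows of 7 of them (77.8%), all but Cxcr3 and Ccr9, against 62.4% of all genes and 64.5% of genes with windows of the same length range. Only at Cxcr4 and Ccr4 did such a region overlap the gene itself. The nearest lay 704 bp from Cxcr5 within Bcl9l and 9861 bp from Cxcr6 within Fyco1. It lay 3407 bp from Ccr8, 5948 bp from Ccr6 and 9298 bp from Ccr2. Of 28 merged CTCF regions, 10 were shared, 4 were KO-only, none was WT-only and 14 were called in other combinations. Over the windows of all genes, 54.1% of regions were shared, 8.82% were KO-only and 0.522% were WT-only.

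Ccr4 carried the highest-ranked CTCF peak among the receptors in each list. Its window had 2.60 and 2.03 kb under CTCF in KO against 1.36 and 1.37 kb in WT, a log2 ratio of 0.49 without overlap. The region chr9:114498181-114498794, inside the gene, ranked at the 97.2 and 98.3 percentiles of the KO lists and at the 98.2 and 97.3 percentiles of the WT lists. A neighbouring region, chr9:114496192-114497543, also inside the gene, lies over the promoter shown above. Its peaks spanned 1065 and 746 bp in KO and 376 and 388 bp in WT.

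Ccr8 had 2.06 and 2.68 kb of CTCF in KO against 1.80 and 1.36 kb in WT, without overlap, at a log2 ratio of 0.38. The genotypes overlapped with the same number of best-scored peaks per library, at 2.06 and 1.71 kb in KO against 1.80 and 1.36 kb in WT, and also for the gene body alone and by number of peaks. They overlapped too when scaled to total covered length, at a log2 ratio of 0.14, and among the better-scored 50% of peaks, at 0.017. The shared CTCF region there, chr9:120098314-120100142, lies 3407 bp beyond the gene and outside its H3K27ac region. Ccr6, the Th17 receptor, had 1.56 and 0.745 kb in KO against 0.579 and 0.421 kb in WT, a log2 ratio of 0.52 without overlap. Cxcr5 had 1.77 and 1.84 kb in KO against 1.43 and 1.64 kb in WT, at a log2 ratio of 0.14. The order of the genotypes at Cxcr5 turned with the same number of best-scored peaks per library, at 1.26 and 1.26 kb in KO against 1.43 and 1.64 kb in WT. The KO-only CTCF region inside Cxcr5, chr9:44515404-44516013, ranked low in its lists, at the 2.52 and 9.30 percentiles of the KO lists.

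At the remaining receptors the CTCF lengths overlapped between the genotypes. Cxcr4 had 2.31 and 0.957 kb in KO against 1.11 and 0.968 kb in WT, in 1 shared region, chr1:128590919-128593260, that holds the promoter. Cxcr6 had 0.304 and 0.137 kb in KO against 0.298 and 0.319 kb in WT. Ccr2 had 0.354 and 0.526 kb in KO against 0.312 and 0.355 kb in WT, and Ccr9 had 0.484 and 0.194 kb in KO against 0 and 0.683 kb in WT.

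Both KO libraries were above both WT libraries for CTCF at 5 of the 9 receptors, Cxcr3, Cxcr5, Ccr4, Ccr6 and Ccr8, and both WT libraries were above at none. Over 16069 genes with a CTCF peak these shares were 56.3% and 3.02%, so the count at the receptors is near that of genes at large. The count was 2 for gene bodies without flanks (Cxcr5 and Ccr4), 2 with the same number of best-scored peaks (Ccr4 and Ccr6) and 1 among the better-scored 50% of peaks (Ccr6). It was 3 when scaled to total covered length (Cxcr3, Ccr4 and Ccr6) and 3 when peaks were counted (Cxcr3, Cxcr5 and Ccr2). Both WT libraries were above at Cxcr5 with the same number of best-scored peaks, and at Cxcr5 and Ccr2 among the better-scored 50%. When scaled, they were above at Cxcr6, at 0.257 and 0.127 kb in KO against 0.334 and 0.378 kb in WT. The shares over all genes are for the full lists with 10 kb flanks, and none was computed for these other settings. Whether the receptors depart from genes at large under them was therefore not tested. Summed over the windows, CTCF covered 11.6 and 9.55 kb in KO and 6.89 and 7.12 kb in WT, a log2 ratio of 0.53 that was 0.18 when scaled to total covered length.

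ETS1 was called mainly at Cxcr4 and Ccr4. At least 1 library had an ETS1 peak at 6 of the 9 receptors, near the shares of 75.3% of all genes and 77.4% of genes with windows as long. A region of all 4 libraries was present at Cxcr4 alone, 1 of the 9 genes (11.1%), against 38.2% of all genes and 41.6% of genes with windows as long. Cxcr4 had 1.23 and 0.916 kb under ETS1 in KO and 0.987 and 1.27 kb in WT, and the genotypes overlapped. The shared region, chr1:128590872-128591787, lies inside the gene, next to a promoter region, chr1:128592202-128593274, that was called in KO replicate 1 and both WT libraries. Both overlap the merged CTCF region of Cxcr4. The ETS1 region inside the gene is reached by the CTCF peaks of KO replicate 1 and WT replicate 1 alone. The CTCF peaks of KO replicate 2 and WT replicate 2 begin beyond its end, at 128592236 and 128592250. KO replicate 2 has the shortest ETS1 list, and the part of that in its missing promoter call was not tested.

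Ccr4 had 0.979 and 1.07 kb of ETS1 in KO against 0 and 1.91 kb in WT. Its promoter region, chr9:114496062-114496937, was called in both KO libraries and WT replicate 2, with peaks of 476 and 809 bp in KO and 871 bp in that WT library. This region overlaps the CTCF region of the Ccr4 promoter. Ccr8 had 1.31 and 0 kb in KO and none in WT, although its promoter was acetylated in every library. Cxcr5 had 0.97 and 0 kb in KO against 0 and 0.457 kb in WT, Ccr6 had 0.587 and 0 kb in KO against 0.494 and 0 kb in WT, and Ccr9 had 0.136 and 0 kb in KO and none in WT. Cxcr3, Cxcr6 and Ccr2 had no ETS1 peak in any library.

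No receptor had both KO libraries above both WT libraries for ETS1, or the reverse, out of 6 with a peak. Over 16470 genes with an ETS1 peak the shares were 3.86% and 7.47%. At Cxcr4 the KO pair was above for the gene body alone, and the WT pair was above among the better-scored 50% of peaks. Without KO replicate 2, 4 receptors had KO above WT (Cxcr5, Ccr6, Ccr8 and Ccr9), each from KO replicate 1 alone, which has the longest ETS1 list. No share over all genes was computed for these settings, so the shares above are no background for them. Summed over the windows, ETS1 covered 5.21 and 1.98 kb in KO and 1.48 and 3.64 kb in WT, a log2 ratio of 0.37 that was -0.26 without KO replicate 1 and 0.89 without WT replicate 2. Of 17 merged ETS1 regions, 1 was shared, none was KO-only or WT-only, and 13 were called in 1 library. Over the windows of all genes, 14.2% of ETS1 regions were shared, 0.557% were KO-only and 1.08% were WT-only. KO replicate 1, the longest list, had 11 of the 16 regions that were not shared. Of the 13 H3K27ac regions, 9 overlapped a CTCF region and 5 an ETS1 region of any library, and of the 17 ETS1 regions, 9 overlapped a CTCF region and 6 an H3K27ac region. Overlaps between antibodies were not counted over all genes, so these counts cannot be called particular to the receptors. Of the 3 shared H3K27ac regions, 1 overlapped a shared CTCF region and none overlapped a shared ETS1 region. The shared ETS1 region of Cxcr4 overlapped its merged CTCF region, through the CTCF peaks of KO replicate 1 and WT replicate 1 alone.

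The chromosome 9 block holds Ccr9, Cxcr6 and Ccr2 beside other receptor genes such as Xcr1, Ccr1 and Ccr3. Most of its H3K27ac lay between the receptor genes and not at them, with 86.0% and 87.3% of the length in KO and 83.8% and 89.0% in WT outside all windows of the cluster's receptors. These windows take up only part of the block. For CTCF the shares outside them were 58.7% and 65.2% in KO and 64.5% and 58.6% in WT. For ETS1 they were 77.3% and 0% in KO and 48.7% and 55.3% in WT. A stretch of 5 shared H3K27ac regions, chr9:123923110-123942991, spans 19882 bp in the gap between Xcr1 and Ccr1 and lies in no protein-coding gene. It alone had 14.0 and 12.7 kb of H3K27ac in KO and 11.3 and 13.5 kb in WT, which is 69.4% and 73.1% of the block's total in KO and 66.0% and 76.6% in WT. The genotypes overlapped there. The stretch begins 61080 bp from Xcr1 and ends 19134 bp from Ccr1, and it lies 111355 bp from Cxcr6 and 158926 bp from Ccr2.

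CTCF was also called in this stretch in all 4 libraries, over 4.60 and 4.53 kb in KO and 3.66 and 3.78 kb in WT, a log2 ratio of 0.24 without overlap. ETS1 covered 2.07 and 0 kb of it in KO and 0.88 and 0.852 kb in WT. The peaks of all 4 H3K27ac libraries, of CTCF WT replicate 2 and of ETS1 WT replicate 1 begin at the same base, 123923110. A second group of intergenic H3K27ac lies between Ccr3 and Ccr2, with 2 shared regions at chr9:124067104-124080086. It had 3.34 and 2.28 kb in KO and 2.86 and 1.93 kb in WT, and its near edge is 21831 bp from Ccr2, which has no such region in its own window.

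**Figure D4:**
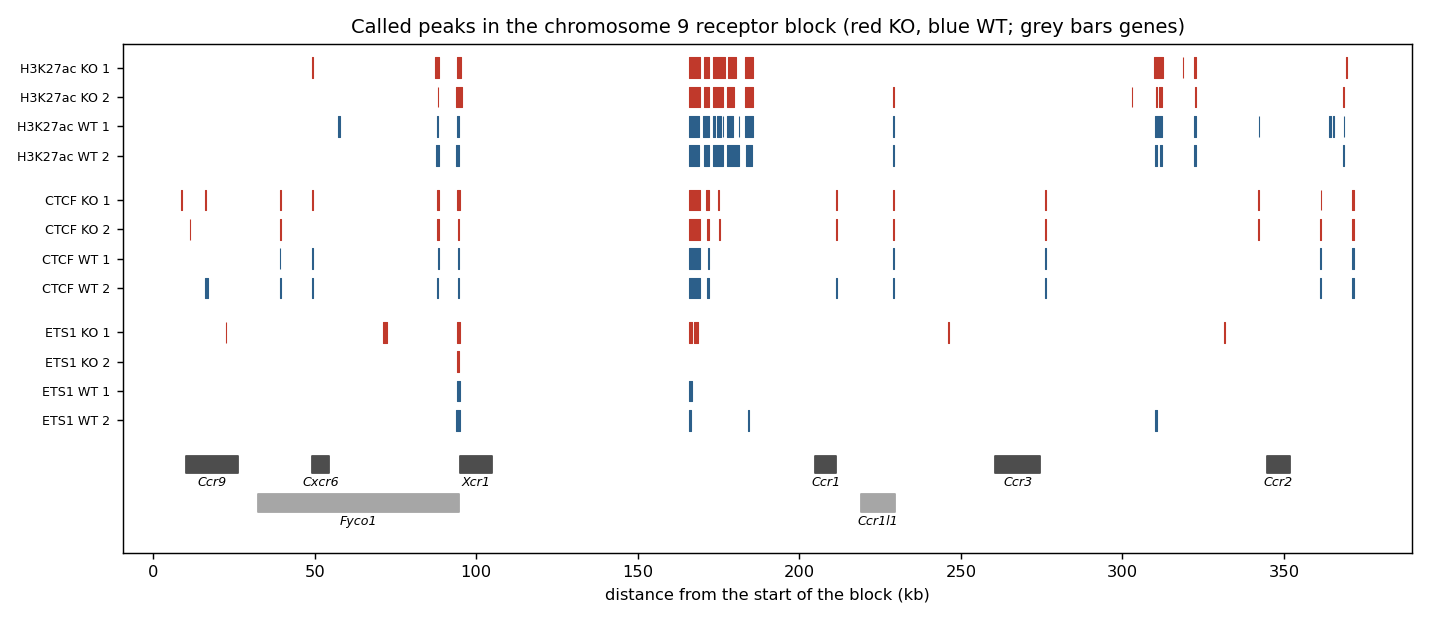
Called peaks of each library in the chromosome 9 receptor block, with the distance in kb from the start of the block on the horizontal axis and 1 library per row, red for KO and blue for WT. Grey bars are genes named in the text and Ccr1l1. The dense H3K27ac stretch between Xcr1 and Ccr1 makes up 69.4% and 73.1% of the block's H3K27ac in KO and 66.0% and 76.6% in WT.

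Over the whole block H3K27ac covered 20.1 and 17.3 kb in KO and 17.1 and 17.6 kb in WT. The genotypes overlapped at a log2 ratio of 0.10, with an exact two-sided permutation p of 0.667. With 2 libraries against 2 the smallest p of this exact test is 0.333, so no call was possible. The test takes the WT technical replicates of a single biological sample as independent, so its p-values carry no spread between WT samples. The median ratio over 3625 stretches of the same length with a peak was 0.24, and both KO libraries were above both WT libraries in 60.7% of them and below in 7.50%. Scaled to total covered length the ratio of the block was -0.27, and by number of peaks, 12 and 13 in KO against 18 and 12 in WT, it was -0.25. CTCF covered 8.80 and 7.85 kb in KO and 6.39 and 7.49 kb in WT, a log2 ratio of 0.23 (exact permutation p = 0.333), and both KO libraries were above both WT libraries in 63.0% of same-length stretches and below in 1.84%. Scaled to total covered length, the CTCF ratio was -0.11. ETS1 covered 4.70 and 0.518 kb in KO and 1.81 and 2.69 kb in WT, with an exact permutation p of 1, a log2 ratio of 0.15 that was -1.10 without KO replicate 1, and background shares of 1.99% above and 4.71% below.

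The single shared ETS1 region of the block, chr9:123850934-123852165, lies over the RefSeq promoters of Fyco1, the gene of vesicle transport that encloses Cxcr6, and 149 bp from Xcr1. It ranked at the 97.2 and 95.7 percentiles of the KO lists and at the 86.0 and 94.4 percentiles of the WT lists. At the other receptors of the block, Xcr1 had 2.52 and 1.98 kb of H3K27ac in KO against 0.906 and 1.73 kb in WT, and its window takes in the promoters of Fyco1. Ccr1 and Ccr3 had no H3K27ac peak.

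The receptors were set beside 45 other genes of chemokine reception, made up of 13 other receptors, 15 ligands and 17 signalling genes. For H3K27ac, 26 of them had a peak, and both KO libraries were higher at 10, both WT libraries at 4 and neither at 12. Over all genes with an H3K27ac peak, the shares were 54.0% with KO higher and 6.37% with WT higher. The signalling genes were mostly acetylated, 16 of 17 with a peak in every library, while 6 of the 13 other receptors and 2 of the 15 ligands were. By the similar measure of a region called in all 4 libraries, the share over all genes was 52.0%. Window lengths reached 577 kb among the signalling genes against 54.8 kb among the other receptors and ligands. The part of window length in these counts was not tested. The median log2 ratio over the 26 genes was 0.18, as over all genes with a peak. Of the genes whose libraries did not overlap, those with the largest ratios were Ccr7, the receptor of lymph node homing, at 1.84, Rgs1 at 1.45 and Rgs16 at 0.56. Rgs1 and Rgs16 encode proteins that shorten G protein signals. H3K27ac at Rgs1 covered 6.43 and 4.10 kb in KO and 1.06 and 1.53 kb in WT, and at Rgs16 it covered 2.74 and 2.40 kb in KO and 1.21 and 1.64 kb in WT. The ratio of Ccr8, 0.57, is close to that of Rgs16 and lower than that of Ccr7.

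For CTCF, 36 of the 45 genes had a peak, with both KO libraries higher at 17, both WT libraries at 2 and neither at 17, against 56.3% and 3.02% of all genes with a CTCF peak. Among the genes whose libraries did not overlap, the largest ratios were at Ackr2, a scavenging receptor, with 1.42 and 1.31 kb in KO and none in WT, at Ccr10, with 4.53 and 4.84 kb in KO and 1.51 and 3.09 kb in WT, and at Gnb2, with 1.43 and 1.21 kb in KO and 0.36 and 0.618 kb in WT. For ETS1, 30 genes had a peak, with both KO libraries higher at 1, both WT libraries at 3 and neither at 26, against 3.86% and 7.47% of all genes with an ETS1 peak. The largest ETS1 ratios among the genes without overlap were at Gnb2, which encodes a G protein subunit, at -0.75, Ackr2 at 0.50 and Cxcr2 at -0.49. Gnb2 had 0.743 and 0.66 kb of ETS1 in KO and 0.818 and 2.90 kb in WT, and Cxcr2 had 0.403 and 0 kb in KO and 0.68 and 0.702 kb in WT.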

How the data were processed

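The deposited data were peak lists of 14 CUT&RUN libraries, 1 list per library, grouped by the antibody and genotype in the titles. Per the submitters' processing notes, BWA and the build GRCm38 were used for alignment. The peak names inside the lists carry MACS2 naming. Versions, options, control use and duplicate removal are not stated in the labels. From the values and the column layout, each of the authors' lists holds 9 columns, with the authors' score (a whole number made from the q-value), the authors' ratio, a fold enrichment over background within the library, and the −log10 of p and q from the authors' caller. These values were used only to rank peaks within their own list, and a rank percentile is a peak's rank by −log10 q in its list, with the best peak at the top and ties at their average. Depth is unknown, so no interval or floor is given, and longer lists may come from deeper libraries.

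Covered length is the sequence under peaks in a gene with 10 kb flanks, from the RefSeq table of GRCm38.p6, counted once where windows overlap. Ratios are log2 of KO over WT means, with 1 kb added to both. A gene counted as higher in a genotype when both its libraries exceeded both others, and the same shares over all genes, with 10 kb flanks and all libraries, are given for each antibody. Overlapping peaks of an antibody (1 bp or more) were joined into regions that were shared (all 4 libraries), KO-only, WT-only or other. An exact two-sided permutation test over libraries was used for the chromosome 9 block. The code was tested on simulated peak lists.

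The members, the 45 further genes and the marker lists were chosen with earlier results of these data known. All 9 members are named, as are other receptors of the block, the neighbours in the windows and, per antibody, the 3 further genes with the largest ratio whose libraries did not overlap. Cd8a, Pax5 and the other markers without a peak, and Ogt, Mpc1 and Lztfl1, are named as counted or nearest genes. Some genes of the lists are not reported here by name, although they stay in the counts. Alternatives were gene bodies, 50 kb flanks, the same number of best-scored peaks, the better-scored 50% of peaks, scaling to total covered length, peak numbers, an offset of 0.1 kb, a minimum of 50% of a region, and leaving out each library. Computation used Python 3.11.15, numpy 2.4.6, pandas 2.3.3 and scipy 1.17.1.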

Additional observations from a re-analysis of the deposited data

How the results depend on the processing

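Among the results over the 9 genes and the block, 81 alternatives kept the direction of a ratio or left a count within 1.5 times, 17 moved a count by over 1.5 times and 10 turned a direction. The H3K27ac count of genes with both KO libraries above (1) was 4 with 50 kb flanks, 0 by number of peaks, and 1 to 3 with a library left out. The H3K27ac ratio of the block (0.10) was -0.27 when scaled to total covered length, -0.25 by number of peaks, and -0.0020 to 0.20 with a library left out. With a minimum of 50% of a region, 1 H3K27ac region was KO-only and 1 shared (0 and 3 otherwise), 6 CTCF regions were shared (10 otherwise) and 0 ETS1 regions were shared (1 otherwise). The CTCF count (5) was 2 for gene bodies, 2 with the same number of peaks, 1 in the better-scored 50%, 3 when scaled, 3 by number of peaks, and 5 to 7 with a library left out. KO-only CTCF regions (4) were 2 with the same number of peaks, and the CTCF ratio of the block (0.23) was -0.11 when scaled. The ETS1 ratio over the windows (0.37) was -0.11 in the better-scored 50% and -0.26 to 0.89 with a library left out, the ETS1 count (0) was 1 for gene bodies and 0 to 4 with a library left out, and the ETS1 ratio of the block (0.15) was -0.17 when scaled and -1.10 to 0.81 with a library left out. The CTCF ratio was -0.020 with 50 kb flanks at Cxcr3, and at Cxcr5 it was -0.0034 with 50 kb flanks, -0.17 with the same number of peaks, -0.17 in the better-scored 50% and -0.10 when scaled. Some ratios kept their direction at another size. The H3K27ac ratio over the windows (0.50) was 0.16 when scaled, and that of CTCF (0.53) was 0.18 when scaled, 0.19 in the better-scored 50% and 0.32 with the same number of peaks. The ETS1 ratio over the windows was 0.70 for gene bodies and 0.58 by number of peaks. In the better-scored 50% the ratio of the block was 0.50 for H3K27ac and 0.50 for ETS1, and that of ETS1 was 0.42 with the same number of peaks and 0.32 by number of peaks. The cause of these changes was not tested. No share over all genes was computed under any alternative, so the counts under the alternatives have no background beside them. Leaving out a library leaves a lone library to stand for its genotype, which loosens the rule behind each count. No paired analysis was possible because the KO numbers mark biological and the WT numbers technical replicates. Depth limits what a missing peak shows, since no read counts were used, and an uncalled mark was not detectable at the depth and threshold of its list.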
